A study of Equus caballus with 20 samples.

Results

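Genes for proteins of the cytoplasmic ribosome were chosen by name: a symbol that begins with RPL or RPS and a digit, or with RPLP or RPSA, with or without a suffix. The kinases named RPS6K were left out, and the mitochondrial ribosomal proteins, named MRPL and MRPS, do not fall under the rule. The rule found 70 of the 26740 features in the table, 41 named RPL or RPLP (60S, the large subunit) and 29 named RPS or RPSA (40S, the small subunit). The rule uses names only, but the family was chosen with earlier results of these data known. RPS19BP1, which the rule also takes in, encodes a protein that binds RPS19 and is no part of the ribosome.

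The ribosome makes the proteins of the cell and consists of ribosomal RNA and a fixed set of proteins, most of them present once in each particle, so that their genes have to be expressed in balance. Their mRNAs start with a run of pyrimidines, the 5′ terminal oligopyrimidine (TOP) motif, through which mTOR signalling and the binding protein LARP1 control their translation and storage together. The oviduct epithelium consists mainly of multiciliated cells, which move the embryo and the tubal fluid, and secretory cells, which feed and modify that fluid.

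The libraries came from epithelial cells of Warmblood mares, collected where ampulla and isthmus join, 4 days after ovulation. In pregnant mares, 5 biological replicates were from the tube next to the ovary that had ovulated (ipsilateral, PI) and 5 from the other tube (contralateral, PC). Cyclic, that is non-pregnant, mares gave the corresponding groups CI and CC of 5 each, so that all groups share breed, day and site. The labels do not say which libraries came from the same mare, nor what was done to establish pregnancy, so p-values measure the spread between these libraries.

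Recovered reads ran from 2795168 (PI1) to 10126484 (CI2) per library. Epithelial markers were present in all libraries: EPCAM, an adhesion molecule of epithelia, lay at 1115 to 2413 normalized counts and FOXJ1, the regulator of motile cilia, at 2774 to 6344. Of the markers of secretory cells, PAX8 lay at 1410 to 2491 normalized counts, whereas OVGP1, a glycoprotein, was listed at 0 to 15.36. KRT8, KRT18, KRT19 and CLDN3 were not analysed here. PTPRC, which marks leukocytes, was present at 100.9 to 703.8 normalized counts and COL1A1, a collagen of stromal cells, at 75.86 to 1450. In bulk samples such as these, fewer cells of a type and less RNA per cell cannot be told apart. One feature, ENSECAG00000014226, took 27.8% of all reads in PI4, 15.4% in CI3 and 14.4% in PI1, and less than that elsewhere.

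Of the 70 genes, 64 passed the filter on low values, 36 of the large and 28 of the small subunit. The other 6 were RPL10L and RPL12, listed at 0 in all 20 libraries, and RPL3L, RPL21, RPL37A and RPS21, which had at most 5 reads in any library. RPL3L and RPL10L are known as forms of heart and skeletal muscle and of the testis. RPL12, RPL21, RPL37A and RPS21 belong to every ribosome, so their entries say only that these rows of the table hold few or no reads. Ribosomal protein genes have many processed pseudogenes and near-identical copies, and the counting could have split or dropped their reads. RPL6, RPL10, RPL15, RPL17, RPL23A, RPL28, RPL36, RPL36AL, RPLP1, RPLP2, RPS3, RPS15 and RPS27, among others, were not analysed here.

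Ribosomal protein mRNA differed widely from library to library, within each group as well as between groups. The summed reads of the 70 genes made up 1.69% of all reads in PI1 (exact 95% interval 1.67% to 1.70%) and 7.44% in CC2 (7.42% to 7.45%). These intervals cover counting error only, since reads are not independent molecules. In normalized counts, the sum rose from 110559 in PI1 to 446806 in CC2, a ratio of 4.04.

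A median over the 64 genes was taken in each library on the scale of log2(normalized count + 3.03). In the pregnant ipsilateral group it was 10.46, 12.21, 11.22, 11.01 and 10.83 in replicates 1 to 5. The pregnant contralateral libraries gave 10.69, 12.16, 11.18, 11.43 and 11.71. In the cyclic mares it was 11.90, 12.20, 10.66, 11.91 and 11.62 on the ipsilateral side. The opposite oviduct of cyclic mares gave 12.13, 12.46, 12.01, 10.80 and 11.53. Each group thus held libraries near the bottom and near the top of the whole range, and all 4 groups overlapped. Group means were 11.15 ± 0.66 (SD, n = 5) in PI, 11.43 ± 0.55 in PC, 11.66 ± 0.59 in CI and 11.79 ± 0.65 in CC. The pooled SD within groups was 0.613.

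**Figure D1:**
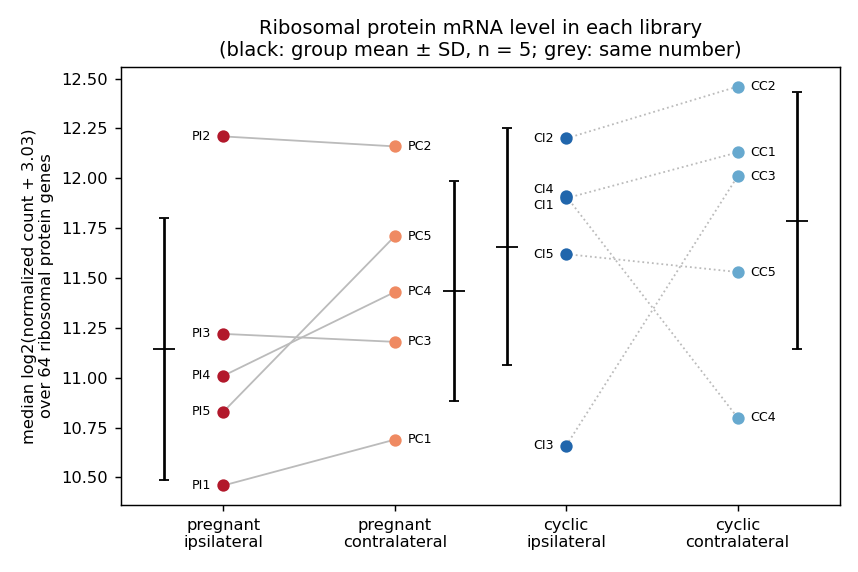
Median log2(normalized count + 3.03) over 64 ribosomal protein genes in each of 20 libraries (points), by group, with the group mean ± SD (black, n = 5) and grey lines joining libraries of the same status and replicate number (dotted for cyclic mares). Every group spans more than 1 log2 unit, from 10.46 (PI1) to 12.21 (PI2) in pregnant ipsilateral oviducts and from 10.80 (CC4) to 12.46 (CC2) in cyclic contralateral ones.

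In pregnant mares, libraries with the same number had similar levels on both sides in most cases. PI1 and PC1 were the lowest libraries of their groups and PI2 and PC2 the highest. The median of PI minus PC was -0.23, 0.05, 0.04, -0.41 and -0.88 for numbers 1 to 5, so that numbers 2 and 3 had nearly the same level on both sides while number 5 was lower in all 64 genes ipsilaterally. In cyclic mares, CI minus CC was -0.23, -0.26, -1.35, 1.12 and 0.08. Numbers 3 and 4 there went opposite ways, CI3 below CC3 in 64 of 64 genes and CI4 above CC4 in 63 of 64.

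The genes moved together across libraries. For each gene, the correlation r of its log2 level with the median of the others over the 20 libraries had a median of 0.954, and it was 0.9 or more in 51 of 64 genes (79.7%). Among the other 14628 features kept, 117 (0.8%) reached 0.9 with the same median. These r values describe 20 libraries that share 1 scaling and that differ in depth. The medians of the large and the small subunit followed each other with r = 0.973. PI1 was the lowest library for 42 of the 64 genes, CI3 for 11 and CC4 for 8, and CC2 was the highest for 48, CC1 for 7 and PI2 for 4.

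**Figure D2:**
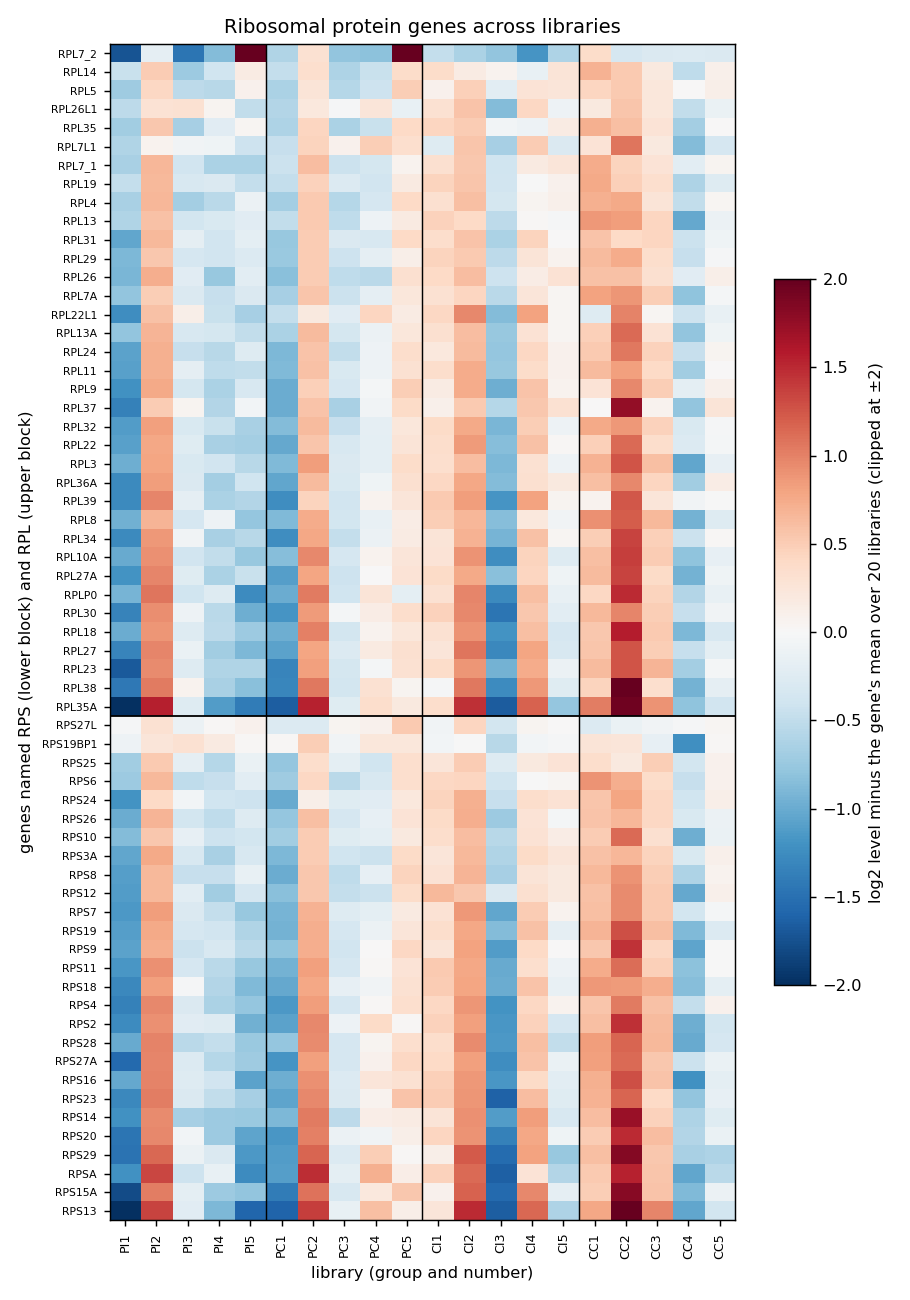
Log2 level of 63 ribosomal protein genes in each library, as the difference from the gene's own mean over 20 libraries (colour, red higher, clipped at ±2), with RPL genes above and RPS genes below the horizontal line. Within each block genes are sorted from the flattest (top) to the steepest (bottom) against the median of the others. Libraries PI1, PC1, CI3 and CC4 are blue and PI2, PC2, CI2 and CC2 red for nearly all genes, and RPL7_2 stands apart with PI5 and PC5.

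Ribosomal protein mRNAs also varied more than other mRNAs. Their median SD of log2 level over the 20 libraries was 0.671, against 0.394 for the other features. Among features with a mean of at least 1000 normalized counts, it was 0.679 for 55 ribosomal protein genes and 0.305 for 1068 others. The ratio of the highest to the lowest library had a median of 4.69 over the 64 genes. It was 5 or more in 29 of them and 10 or more in 6. In the small subunit the SD had a median of 0.723 (28 genes) and in the large one 0.626 (36 genes).

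How far a gene moved differed across the family. RPS13, a small subunit protein at the interface with the large one, showed the widest swing apart from RPL7_2, with an SD of 1.255. It lay at 311.6, 3815, 1286, 806.9 and 496.1 normalized counts in PI1 to PI5 and at 489.8, 3932, 1358, 2271 and 1626 in PC1 to PC5. In cyclic mares RPS13 was at 1783, 4209, 477.3, 3334 and 981.5 normalized counts in CI1 to CI5. It was at 2579, 7372, 2969, 728.1 and 1157 in CC1 to CC5. The highest and the lowest library of RPS13 differed 23.7-fold, and all 4 groups overlapped. RPL35A, a large subunit protein whose gene is mutated in some patients with Diamond-Blackfan anaemia, ran from 196.8 (PI1) to 3619 (CC2), an 18.4-fold range. RPS15A, of the small subunit, ran from 360.8 (PI1) to 4432 (CC2) normalized counts. On a line against the median of the other genes, RPS13 had a slope of 1.97 and RPL35A one of 1.95.

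At the other end, several genes of the core ribosome moved by far less than the median gene. RPL5, which with RPL11 carries the 5S RNA into the ribosome, had an SD of 0.422 and a slope of 0.54, against 0.591 and 0.93 for its partner RPL11. RPL5 lay at 5614 normalized counts in PI1 and 13191 in CC2, a 2.35-fold range, while RPL11 went from 1743 to 6515, or 3.74-fold. RPS25, a small subunit protein needed for initiation at some viral internal ribosome entry sites, ranged from 1939 (PC1) to 4759 (PI2) with an SD of 0.41. RPL14 of the large subunit had r = 0.70 with the family, with its lowest library PI3 at 4425 and its highest CC1 at 11813.

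**Figure D3:**
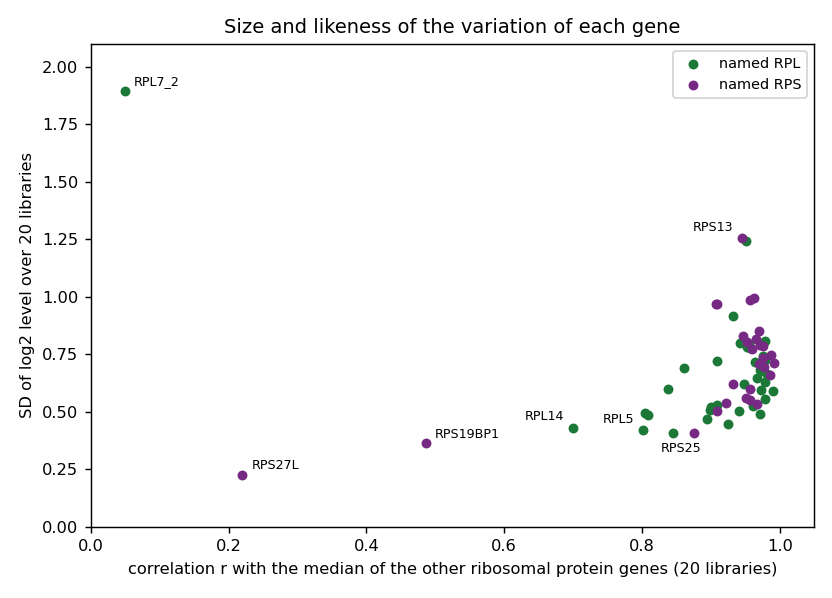
SD of log2 level over 20 libraries (vertical) against the correlation r with the median of the other ribosomal protein genes (horizontal) for the 64 genes kept, coloured by subunit name. Of the 64 genes, 51 lie at r of 0.9 or more, RPS13 reaches an SD of 1.255 among them, and RPL7_2, RPS27L and RPS19BP1 lie below 0.5.

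Of the 5 genes with the lowest correlations, RPL5 and RPL14 were described above, and the other 3 were RPL7_2, RPS27L and RPS19BP1. RPS27L, a paralogue of RPS27 that p53 induces, had r = 0.22 and the smallest SD, 0.226. It lay at 342.1, 430.7, 317.4, 353.9 and 367.3 normalized counts in PI1 to PI5, and at 287.4, 287.5, 358, 368.8 and 496.6 in PC1 to PC5. The cyclic libraries gave 329.3, 469.2, 268.3, 358.4 and 347.2 for CI1 to CI5 and 284.6, 316.1, 328.2, 342.3 and 357.4 for CC1 to CC5. PI1 and CC2, the extremes of the family, thus differed little in RPS27L. RPS19BP1, also a regulator of the deacetylase SIRT1, ran from 31.73 (CC4) to 111.2 (PC2) with r = 0.49.

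The paralogues of large subunit proteins had correlations near those of RPL5 and above those of RPL14, RPS27L and RPS19BP1. RPL22L1, which can replace RPL22, ranged from 25.77 (PI1) to 133 (CC2) normalized counts with r = 0.84. RPL26L1 ranged from 122.5 (CI3) to 337.4 (CI2) with r = 0.845 and an SD of 0.409, the smallest of the large subunit names. RPL7L1, a relative of RPL7 with a role in ribosome assembly, ranged from 96.86 (CC4) to 382.6 (CC2) with r = 0.80.

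RPL7 was listed in 2 rows, RPL7_1 and RPL7_2, and the second behaved unlike any other gene of the family. RPL7_2 was at 548.1 normalized counts in PI5 (464 reads) and at 924.6 in PC5 (834 reads), the ipsilateral and contralateral libraries that carry the number 5 in pregnant mares. In the other 18 libraries it lay between 2.34 (PI1, 1 read) and 19.76 (CC1), with 1 to 20 reads each. PI5 and PC5 thus exceeded the highest other library 27.7- and 46.8-fold. RPL7_1 showed no such split and was at 1909 in PI5 and 3095 in PC5, within its range of 1891 to 4932 normalized counts. RPL7_2 made up 22.3% of the reads of both rows in PI5 and 23% in PC5. Among the 14692 features kept, it was the 1 feature with at least 20 reads that lay at least 5-fold above all other libraries in both PI5 and PC5. No feature met that criterion in the other 9 pairs of libraries with the same status and number. Whether the row holds a gene, a pseudogene or a variant copy was not tested.

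**Figure D4:**
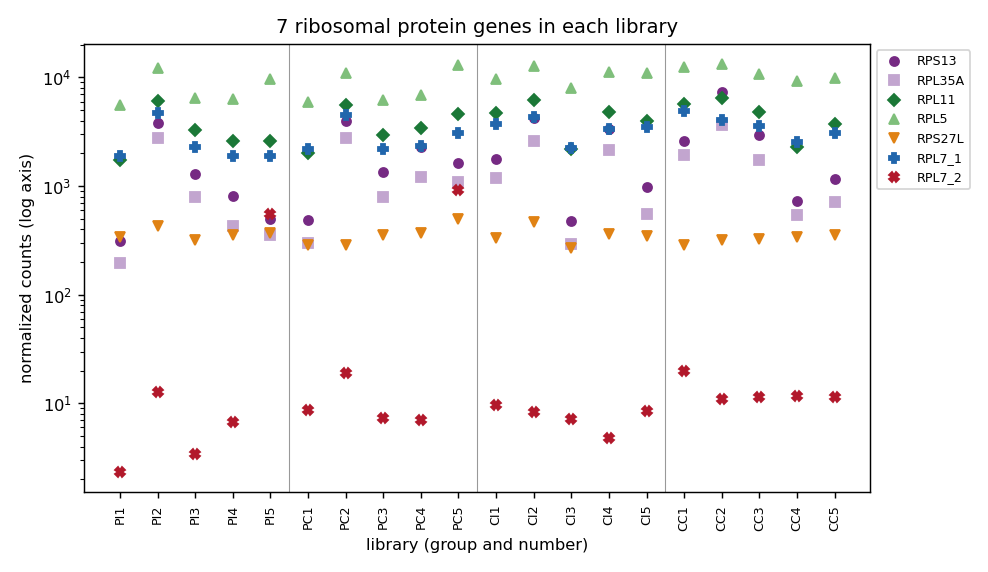
Normalized counts (log axis) of 7 ribosomal protein genes in each of 20 libraries, grouped as PI, PC, CI and CC. RPS13 and RPL35A follow the same rise and fall over a wide range, RPL11 and RPL7_1 over a narrower one, RPL5 and RPS27L stay comparatively flat, and RPL7_2 lies below 20 except in PI5 (548.1) and PC5 (924.6).

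Pregnant mares had lower ribosomal protein levels than cyclic mares on the ipsilateral side for most genes, though by less than the spread between libraries. In the fit of limma over all 14692 features, the log2 difference PI minus CI was below 0 in 61 of 64 genes, with a median of -0.44. Over all features 51.9% were below 0 and the median was -0.01. The 64 signs are not independent of each other, since the genes move together over the libraries. None of the 64 passed an adjusted p of 0.05, and the share of all features that did was 0%. None had an unadjusted p under 0.05 either, where 2% of all features did in the lower direction and 1.5% in the higher. That count depended on single libraries and settings: it was 21 of 64 without PI2 (4.87% of all features), 12 without CI3 (5.64%), 12 with array weights per library (6.19%) and 5 with the replicate number as a block (5.93%), with 0 called at an adjusted p of 0.05 in each. On the recovered reads, edgeR and DESeq2 also called 0 of the 64, with 1 (RPL7_2; edgeR background 3.37%) and 0 unadjusted. All 64 genes overlapped between the groups, whereas 0.402% of all features lay fully lower in PI and 0.191% fully higher.

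RPS24, a small subunit protein with mutations in Diamond-Blackfan anaemia, had the smallest p on both sides. It was at 1401, 4243, 3092, 2442 and 2421 normalized counts in PI1 to PI5 and at 4379, 5247, 2334, 4123 and 3924 in CI1 to CI5. In 3 of the 5 pregnant libraries it lay above the lowest cyclic one, CI3, and below the other 4, and PI2 reached their range. With means of 2720 ± 1045 (SD, n = 5) for PI against 4001 ± 1060 for CI, the log2 difference was -0.60 ± 0.29 (SE, limma adjusted p = 0.999). RPS12, also of the small subunit, was at 3364 ± 1666 against 4879 ± 1130 (log2 -0.63 ± 0.35). RPL7_1 followed with 2539 ± 1226 against 3412 ± 746 (-0.50 ± 0.26), RPL5 with 8082 ± 2865 against 10496 ± 1800 (-0.43 ± 0.24) and RPS25 with 3005 ± 1070 against 3858 ± 695.9 (-0.41 ± 0.24). Their adjusted p in limma was 0.999 as well.

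The genes with the largest log2 differences were those with the widest swing. RPS13 was at 1343 ± 1430 in PI and 2157 ± 1576 in CI (log2 -0.85 ± 0.71), with an SD above the mean in PI and below it in CI. RPL35A was at 909.7 ± 1065 and 1354 ± 991.7 (-0.80 ± 0.71). The 3 genes above 0 were RPL7_2 (0.89 ± 1.12), RPS19BP1 (0.27 ± 0.23) and RPS27L (0.05 ± 0.16), the same 3 that had the lowest correlations with the family. RPL7_2 owed its sign to PI5, without which its log2 difference was -0.32.

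On the contralateral side, PC minus CC was below 0 in 60 of 64 genes with a median of -0.37, against 48.2% and 0.01 over all features. Again limma called 0 of 64 genes at an adjusted p of 0.05 (background 0%), and 0 had an unadjusted p under 0.05 (background 1.8% lower and 2.75% higher). The unadjusted count was 11 with array weights (9.35% of all features), 7 without CC4 (4.68%) and 4 without PC2 (4.95%). edgeR called 0, with 1 unadjusted (RPL7_2; background 5.74%), and DESeq2 0, with 0 unadjusted, although DESeq2 called 6 of all features there. No gene of the family lay fully lower or higher in PC, as 0.272% and 0.313% of features did. RPS24 was at 1591, 3508, 2722, 2751 and 3733 normalized counts in PC1 to PC5 and at 4731, 5557, 4282, 2446 and 3478 in CC1 to CC5. Only CC4 and CC5 reached into the pregnant range, and the means of 2861 ± 839.9 and 4099 ± 1191 gave a log2 difference of -0.52 ± 0.29 (limma adjusted p = 1).

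RPL5 was at 5965, 10994, 6170, 6942 and 13002 normalized counts in PC1 to PC5 and at 12350, 13191, 10772, 9213 and 9959 in CC1 to CC5. PC2 and PC5 were as high as the cyclic libraries and the other 3 were lower than all of them (log2 -0.43 ± 0.24). RPS6, the substrate of the S6 kinases, stood at 6968 ± 2503 in PC and 9778 ± 3391 in CC (-0.49 ± 0.29), and RPL26, a protein near the exit tunnel, at 4540 ± 1890 and 6078 ± 1368 (-0.49 ± 0.30). RPS19BP1 went the other way, 89.72 ± 14.35 against 73.29 ± 25.35 (0.36 ± 0.23). RPL7_2 (0.92 ± 1.12), RPS27L (0.12 ± 0.16) and RPL7L1 (0.11 ± 0.30) were the other genes above 0.

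Genes with further roles had differences in the range of the family in both comparisons. RPLP0, the protein that anchors the stalk of the large subunit, was at 3932 ± 2870 in PI, 4546 ± 2535 in PC, 5128 ± 2515 in CI and 5981 ± 3522 in CC, with log2 differences between pregnant and cyclic mares of -0.45 ± 0.47 ipsilaterally and -0.38 ± 0.47 contralaterally. RPL11, which like RPL5 binds MDM2, was at 3243 ± 1641, 3703 ± 1380, 4351 ± 1461 and 4618 ± 1671 in the same order of groups (-0.47 ± 0.35 and -0.31 ± 0.35). RPS27A, made as a fusion with ubiquitin, was at 1453 ± 1036, 1775 ± 834.7, 1946 ± 864.5 and 2325 ± 983.3 (-0.51 ± 0.45 and -0.42 ± 0.45). RPSA, also known as the laminin receptor, differed least, with 1854 ± 1209 in PC against 1886 ± 1282 in CC and a log2 difference of -0.27 ± 0.58 on the ipsilateral side. RPS6 was at 6609 ± 2853 in PI and 8083 ± 1843 in CI (-0.35 ± 0.29). None of these passed the test, and in each gene both differences were smaller than 2 SE.

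Among the paralogues, RPL22L1 had the largest ipsilateral difference, which did not pass the test. It was at 56.67 ± 28.9 in PI and 86.99 ± 38.09 in CI (log2 -0.60 ± 0.36), and at 67.89 ± 17.15 in PC and 72.25 ± 34.66 in CC (-0.02 ± 0.36). The difference between these differences was -0.57 ± 0.51 (limma adjusted p = 1), the largest of the family. RPL26L1 (-0.13 ± 0.26 on both sides) and RPL7L1 (-0.19 ± 0.30 ipsilaterally) differed by less than 1 SE.

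**Figure D5:**
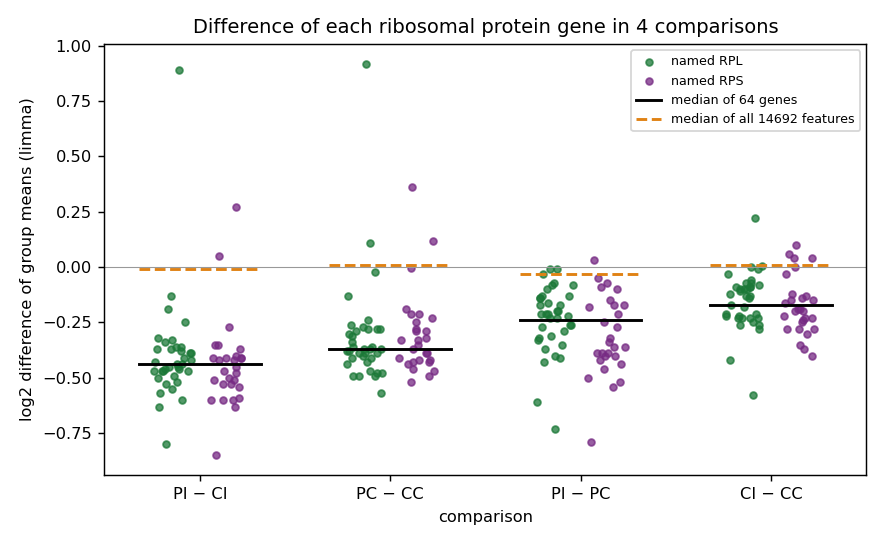
Log2 difference of group means (limma) for each of 64 ribosomal protein genes in 4 comparisons (points; green RPL, purple RPS), with the median of the 64 genes (black line) and of all 14692 features kept (orange dashes). The medians of the family lie at -0.44, -0.37, -0.24 and -0.17, while those of all features lie between -0.03 and 0.01; no point passed an adjusted p of 0.05.

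The ipsilateral oviduct was compared with the contralateral one within each status, using the same libraries as above. In pregnant mares, PI minus PC was below 0 in 63 of 64 genes with a median of -0.24 (55.4% and -0.03 over all features). In cyclic mares, CI minus CC was below 0 in 56 with a median of -0.17 (48.6% and 0.01). Called genes numbered 0 of 64 in either status in limma, edgeR and DESeq2 (background 0% in limma), and none had an unadjusted p under 0.05 in any of these (background in limma 0.402% lower and 0.361% higher in pregnant mares, 0.109% and 0.177% in cyclic ones). Fully separate groups were found for 1 gene, RPL7_2 in cyclic mares, at 4.80 to 9.66 normalized counts in CI against 10.98 to 19.76 in CC (background 0.0408% lower and 0.0272% higher, and in pregnant mares 0.0885% and 0.0476%). That gene rests on 4 to 18 reads per library there, and its log2 difference was -0.58 ± 1.12. RPL7_2 was lower ipsilaterally in 5 of 5 numbers in cyclic and in 5 of 5 in pregnant mares, where the log2 difference was -0.61 ± 1.12. With the replicate number as a block within status, its differences were -0.58 ± 0.22 in cyclic mares (limma adjusted p = 1) and -0.61 ± 0.22 in pregnant mares (adjusted p = 0.822), and it was the 1 gene of the family with an unadjusted p under 0.05 in each (1.63% and 3.16% of all features).

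In pregnant mares the smallest p belonged to RPL7L1, with 117.2, 189.6, 171.4, 169.4 and 134.7 normalized counts in PI1 to PI5 and 129.2, 246, 191.5, 253.7 and 228.4 in PC1 to PC5. It was lower on the side of ovulation in each of the 5 numbers, with a log2 difference of -0.40 ± 0.30 (limma adjusted p = 0.999). RPS13 (-0.79 ± 0.71), RPL35A (-0.73 ± 0.71), RPL22L1 (-0.35 ± 0.36) and RPS14 (-0.46 ± 0.47), the gene lost in the 5q- syndrome, came next. RPS14 was at 1008, 4518, 1485, 1421 and 1401 normalized counts in PI1 to PI5, so that PI2 alone was at the level of the highest PC library, PC2, at 4829.

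In cyclic mares the smallest p belonged to RPS6, at 9853, 9973, 5605, 7356 and 7629 normalized counts in CI1 to CI5 and 13816, 12333, 9526, 5387 and 7825 in CC1 to CC5 (log2 -0.23 ± 0.29, limma adjusted p = 1). CC1 and CC2 lay above every CI library and CC4 below them. RPS27A (-0.30 ± 0.45), RPS29 (-0.37 ± 0.57) and RPL32 (-0.23 ± 0.36) were lower, and RPS27L higher (0.10 ± 0.16), by less than their errors.

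The difference between pregnant and cyclic mares, itself not called in any gene of the family, was not found to depend on the side. The interaction, (PI minus CI) minus (PC minus CC), had a median of -0.09 over the 64 genes and was below 0 in 56 (56.6% and -0.04 over all features), with 0 genes called or at an unadjusted p under 0.05 in limma, edgeR and DESeq2 (background 0% called, 0.136% and 0.184% unadjusted lower and higher). Its median was above 0 without PI1 (0.09), PC2 (0.09), CI2 (0.06) or CC4 (0.12). After RPL22L1, the smallest p belonged to RPL7L1 (-0.30 ± 0.43), RPS12 (-0.24 ± 0.50), RPS13 (-0.39 ± 1.01) and RPS18 (-0.22 ± 0.61).

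The levels of cell type markers were set beside these differences. The multiciliated markers FOXJ1, DNAH5, DNAH9, HYDIN, RSPH1, CCDC39, CCDC40, TEKT1, SPAG6, DNAI1 and DNAI2, 11 of 12 listed, summed to 74327 to 100325 normalized counts in PI and 74532 to 97076 in PC. In CI they summed to 55739 to 79513 and in CC to 56370 to 85511. All 11 were higher in pregnant mares on both sides, with medians of 0.24 and 0.30 (0 called), and none was listed at 0. Over the 20 libraries, the median of the multiciliated markers and that of the ribosomal proteins had r = -0.801, the median ciliary level being highest in PI1 and lowest in CC2. Taken singly, the 11 genes were less opposed to the family, with a median r of -0.316. In 3 of them r was above 0, as in FOXJ1 (0.162). With the multiciliated score as a covariate, the median of the 64 genes was -0.02 ipsilaterally and 0.21 contralaterally, with 39 and 9 genes below 0. The part of multiciliated cells in these differences was not tested.

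Sums of stromal, leukocyte and epithelial markers overlapped between all groups, and limma called none of the stromal or leukocyte markers in any comparison. All 8 stromal markers (such as COL1A1, DCN and LUM) were lower in pregnant mares, with medians of -0.48 and -0.43, and summed to 846 to 6196 in PI, 1389 to 4100 in PC, 1905 to 3818 in CI and 1013 to 6519 in CC. Of 10 leukocyte markers kept of 12, 7 were higher in pregnant mares ipsilaterally and 10 contralaterally, with medians of 0.56 and 0.77. They summed to 436 to 1369 in PI, 655 to 2233 in PC, 452 to 1409 in CI and 540 to 944 in CC, and their median had r = 0.207 with the ribosomal proteins. The 4 epithelial markers kept summed to 3316 to 6101, 3907 to 7740, 3643 to 6749 and 3736 to 7865 in the same order of groups (r = 0.680). The 5 secretory markers kept of 6 (CRISP3 was listed at 0) had r = 0.042, the 6 smooth muscle markers 0.459 and the 4 endothelial ones 0.304. These r belong to the list medians, and the single genes had a median r of -0.166, 0.137 and 0.186 in that order. Red cell markers did not exceed 3 normalized counts in any library. The mRNAs encoded by mitochondrial DNA, 13 in all, went against the family with r = -0.649. With the leukocyte score as a covariate, the median of the 64 ribosomal protein genes was -0.62 on both sides, with 61 genes below 0 in each, and none was called. The part of the other cell types in the ribosomal protein levels was not tested.

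Depth moved with the family as well. PI1, CC4 and CI3 had the fewest reads (2795168, 3407805 and 3856941) and were among the 4 lowest libraries in ribosomal protein level, the other being PC1 with 5781668, whereas CC2 and CI2, with 9849146 and 10126484 reads, were at the top. PC4, with 10015464 reads, had a median of 11.43. With log2 reads as a covariate, the median difference was -0.09 ipsilaterally and -0.63 contralaterally, where 38 of 64 genes then had an unadjusted p under 0.05 (7.49% of all features) and 0 an adjusted one. Between sides it became 0.15 in pregnant and -0.39 in cyclic mares. Leaving out single libraries also decided the size: PI minus CI had a median of -0.26 without PI1, -0.74 without PI2 and -0.70 without CI3. PC minus CC had -0.14 without PC1, -0.15 without CC2 and -0.59 without CC4. Between sides, PI minus PC had -0.52 without PI2, -0.05 without PI1 and -0.04 without PC2, and CI minus CC had 0.09 without CI3, 0.03 without CC2 and -0.42 without CC4.

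Genes that work with the ribosome were set beside the family from lists chosen by function. Ribosomal proteins that the name rule misses varied with it: FAU, a fusion of a ubiquitin-like protein with a small subunit protein, had r = 0.952 with the median of the 64 genes, and GNB2L1, the scaffold RACK1 of the small subunit, 0.977. Their log2 differences were -0.39 ± 0.57 and -0.54 ± 0.47 in PI against CI, and -0.26 ± 0.57 and -0.44 ± 0.47 in PC against CC, and limma called neither.

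Other mRNAs known to carry the TOP motif, mostly translation factors, gave values near those of the family. Of 16 with a row, all kept, 15 were below 0 ipsilaterally (median -0.38) and 14 contralaterally (median -0.34), and their median had r = 0.892 with that of the ribosomal proteins. None was called by limma, and NACA and VIM had an unadjusted p under 0.05. NACA, a subunit of the complex that shields nascent chains, was at 3516 ± 804 in PI against 5034 ± 956.7 in CI (log2 -0.53 ± 0.19, limma adjusted p = 0.999) and at 3454 ± 977.7 in PC against 4903 ± 800.5 in CC (-0.53 ± 0.19, adjusted p = 1). VIM, the filament of mesenchymal cells, was at 179.6 ± 67.73 in PI and 322.3 ± 122.3 in CI (-0.83 ± 0.36).

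Genes of ribosome production and its control had median differences closer to 0. Of 53 ribosome assembly factors kept of 54 with a row, 35 were below 0 ipsilaterally (median -0.04) and 31 contralaterally (-0.03), and their median had r = 0.526 with the ribosomal proteins. The 14 genes of RNA polymerase I transcription had medians of -0.04 and -0.11 (r = 0.337), and the 18 genes of mTOR signalling -0.04 and -0.01 (r = -0.069). Within the latter, DEPTOR, an inhibitor of mTOR, was at 406.7 ± 146.4 in PI against 584.6 ± 53.42 in CI (log2 -0.58 ± 0.24, limma adjusted p = 0.999) and at 426.3 ± 176.3 in PC against 597.3 ± 121.9 in CC (-0.55 ± 0.24, adjusted p = 1). RPTOR, the mTOR complex 1 scaffold, was at 471.9 ± 58.24 in PI and 352.6 ± 58.47 in CI (0.42 ± 0.17) and at 418.4 ± 71.87 and 397.3 ± 97.9 contralaterally. The 9 S6 kinases kept had medians of -0.16 and -0.04 (r = 0.209), the 10 genes of ribosome quality control 0.02 on both sides (r = -0.391) and the 9 genes of the p53 response 0.07 and 0.17 (r = 0.451). These r belong to the list medians and can differ from those of the single genes. Taken singly, the mTOR genes had a median r of 0.405, with 11 of 18 above 0. The p53 genes had one of -0.001, with 4 of 9 above 0. None of the genes in these lists was called by limma.

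The proteins of the mitochondrial ribosome shared the pattern across libraries and less of it between groups. All 68 were kept, 60 of them correlated positively with the cytoplasmic median and their own median followed it with r = 0.859. The single genes followed it less closely, with a median r of 0.636. In PI against CI 50 of 68 were below 0 with a median of -0.09, and in PC against CC 34 of 68 with a median of 0.00. The difference between the 2 families was not tested.

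All features outside the family, those of the lists above included, were ranked by r with its median over the 20 libraries. Those most like the cytoplasmic ribosomal proteins were ENSECAG00000010622 (r = 0.993) and the elongation factor genes EEF1G (0.981) and EEF1A1_1 (0.979). EEF1G also belongs to the list of other TOP mRNAs above, so its r adds nothing independent of that list. EEF1G ran from 2151 normalized counts in CC4 to 10888 in CC2, and EEF1A1_1 from 9026 in PI1 to 39287 in CC2. The features most opposed to them were DDX5, an RNA helicase (r = -0.952), ENSECAG00000011811 (-0.927) and HOXC4 (-0.920). DDX5 ran from 2596 normalized counts in CC2 to 5927 in CC4. Among the features with the next lowest r were SYNE1 (-0.916), the anchor of the nucleus to the cytoskeleton, and SPEF2 (-0.911), a protein of motile cilia, both lowest in CC2 and highest in PI1.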

How the data were processed

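RNA sequencing of oviduct epithelium gave 20 libraries. The authors deposited 1 table of normalized counts (TMM), a signal obtained by scaling the reads of each library with a single factor. Per the submitters' processing notes CASAVA 1.8 was used; aligner, counter, strand setting, build, annotation and filters: not given in the sources used here, so antisense, overlapping and duplicated genes are uncertain. Per the labels' protocols a stranded total RNA kit with ribosomal RNA depletion was used, while another label gives polyA RNA, so which RNA was measured is uncertain. All columns matched 1 sample each by name.

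Whole reads were recovered from the values, 100% of which came out whole within 0.01 reads. A count of 0 allows up to 3 reads, or 1.75 to 7.03 normalized counts by library. All pairs of libraries differed by more than sampling noise, with a chi-square over its degrees of freedom of at least 18.4 in 40 pairs within groups and 5.28 in 10 pairs of equal status and number. Features above 1 CPM in at least 5 libraries (14692) were tested on log2 of the deposited value plus 0.5 CPM (3.03 normalized counts), a scale that understates changes of low genes. Limma 3.58.1 (R 4.3.3; trend and robust) fitted 4 group means to all libraries, 2-sided, with Benjamini-Hochberg adjustment over all features at 0.05. Comparisons share libraries, so they are not independent. Alternatives included edgeR 4.0.16, which called 0 of all features in each comparison, and DESeq2 1.42.0, which called 6 in PC against CC and 0 elsewhere. The procedure was tested on simulated data.

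Samples with the same number deviated together in pregnant mares (correlation of deviations from group means 0.70, 0.60, 0.53, 0.64 and 0.59 for numbers 1 to 5, from the data) and not throughout in cyclic mares (0.29, 0.68, 0.02, -0.04 and 0.62). Between pregnant and cyclic mares, number 2 also deviated together, with 0.59 for PI2 and CI2 and 0.49 for PC2 and CC2. The other numbers lay between -0.40 and 0.12 there. These values do not establish which libraries came from the same mare.

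The members and gene lists were chosen with earlier results of these data known. Genes are named if they have a special role or are paralogues, have the 5 smallest p in a comparison, the 5 largest or smallest SD or the 5 lowest correlations with the family; of other lists, the 2 with the smallest p per pregnancy comparison, and the 3 features most and least like the family. Not all genes under this rule are given here. SYNE1, SPEF2 and the marker genes were named after their values were seen. A ranking by level per coding length was planned and not made, since lengths were not used here. Of the 70 names, 67 matched a RefSeq symbol (TB-T2T), 2 did without their suffix and RPS4 matched a synonym.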

Additional observations from a re-analysis of the deposited data

Results flagged for a closer look

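In groups of 5 libraries, 7 values of the ribosomal protein genes named here lay farther from the rest of their group than Dixon's limit allows. With 108 groups examined, chance alone gives about 5.4 such values (1 in 20 groups). RPL7_2 accounted for 3 of them, 548.1 normalized counts in PI5, 924.6 in PC5 and 19.76 in CC1, the last with 15 reads. RPS19BP1 was low in CI3 at 52.23 and in CC4 at 31.73 normalized counts, 2 of the 4 libraries with the lowest ribosomal protein levels. PI2, the highest library of its group, stood apart for RPL7_1 at 4712 and for RPS14 at 4518 normalized counts.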

How the results depend on the processing

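In the 36 alternatives run for each pairwise comparison and the 35 for the interaction, limma with other settings, edgeR or DESeq2 called 0 of the ribosomal protein genes at an adjusted p of 0.05. The medians of the family changed sign in several. The interaction had 0.54 with log2 reads as a covariate. With that covariate the median of PI minus PC was 0.15, with the multiciliated score that of PC minus CC was 0.21, and without PI1, PI4 and CI3 the side differences were 0.06 and 0.09. Leaving out 1 library at a time, the medians ran from -0.74 to -0.26 (PI minus CI), -0.59 to -0.14 (PC minus CC), -0.52 to -0.04 (PI minus PC), -0.42 to 0.09 (CI minus CC) and -0.38 to 0.12 (interaction). Leaving out PI5 and PC5 was added after seeing the data and gave -0.40, -0.44, -0.10, -0.17 and 0.05 in that order. The pseudocounts, filters, array weights and the unscaled CPM turned no median, and DESeq2 brought the interaction to 0.00.

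The replicate block changed no call at an adjusted p of 0.05. All groups hold the same replicate numbers, so the block could not move the 5 medians (-0.44, -0.37, -0.24, -0.17 and -0.09). Only the errors and p-values could change, and the equal medians are no sign of stability. Pregnant and cyclic libraries share only a number.

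Of the single genes, none passed the test and some changed sign. With log2 reads as a covariate, PI minus CI became 0.14 for RPL26L1, 0.13 for RPL7L1, 0.02 for RPLP0 and 0.32 for RPSA, PC minus CC became -0.13 for RPL7L1, and PI minus PC became 0.14 for RPL22L1 and RPL35A, 0.13 for RPS13 and 0.10 for RPS14. The interaction then was 0.16 for RPL22L1, 0.26 for RPL7L1, 0.28 for RPS12, 1.01 for RPS13 and 0.48 for RPS18. With the multiciliated score, PI minus CI became 0.13 for RPL26L1, 0.07 for RPL7L1, 0.0037 for RPLP0, 0.06 for RPS27A and 0.44 for RPSA. PC minus CC then was 0.17 for RPL11, 0.37 for RPL22L1, 0.21 for RPL26L1, 0.22 for RPLP0, 0.33 for RPS27A and 0.93 for RPSA. RPL7L1 in PC minus CC fell to -0.09 with the leukocyte score, -0.03 with array weights, -0.0055 in edgeR and -0.0084 in DESeq2. RPS27L in PI minus CI was -0.0038 without TMM, -0.04 with array weights and -0.01 without PI1, PI4 and CI3, which also gave 0.03 for RPL32 and RPS27A and 0.0039 for RPS29 in CI minus CC. Without PI5 and PC5, RPL7_2 was at -0.32 and -0.31, and in PC minus CC RPS27L at -0.0068 and RPSA at 0.02.

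With 1 library left out at a time, PI minus CI ran from -0.32 to 1.35 for RPL7_2, -0.05 to 0.15 for RPS27L and -0.69 to 0.03 for RPSA. PC minus CC ran from -0.14 to 0.21 for RPL22L1, -0.27 to 0.0027 for RPL26L1, -0.12 to 0.36 for RPL7L1, -0.31 to 1.32 for RPL7_2, -0.0068 to 0.19 for RPS27L and -0.32 to 0.33 for RPSA. CI minus CC ran from -0.39 to 0.03 for RPL32, -0.50 to 0.03 for RPS27A, -0.69 to 0.0039 for RPS29 and -0.0041 to 0.20 for RPS27L. The interaction ran from -0.49 to 0.07 for RPS12, -0.91 to 0.0024 for RPS13 and -0.53 to 0.06 for RPS18. The causes were not tested. Depth limits RPL7_2, with 20 reads or fewer in 18 libraries, more than the other named genes.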
